A study of Mus musculus with 16 samples.

Results

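Histone genes, which encode the proteins that DNA is wound around, were followed in cultured mouse macrophages with and without Smad7 and with and without transforming growth factor β1 (TGF-β1). The members were the protein-coding genes whose symbol begins with Hist1h, Hist2h, Hist3h, Hist4h, H2af, H3f or H1f. This choice by name used no measured value, and 1 gene with such a name was left out by the rule. It gave 82 of the 35275 genes in the count table: 67 clustered genes, with Hist symbols, and 15 replacement genes, with H2af, H3f or H1f symbols.

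RNA sequencing was done on macrophages grown from the tibial marrow of C57BL/6 mice. Smad7 is an inhibitor of TGF-β signalling. In KO mice, floxed Smad7 alleles were combined with CAGGCre-ER, a tamoxifen-dependent Cre under the ubiquitous CAGG promoter, so that loss was global and not limited to macrophages. Control mice, called fl/fl here, carried the floxed alleles without Cre. Mice of both genotypes received tamoxifen at 20 mg/kg on 5 days at the age of 1 month, and marrow was taken 2 weeks later. Every culture was kept in 15% serum with CSF-1 (the macrophage growth factor), 24 hours with 12 ng/ml and then 48 hours with 120 ng/ml, and was starved of serum for about 12 hours. The groups were KO cells exposed over 4 hours to 10 ng/ml of TGF-β1, KO cells left untreated, fl/fl cells given the same TGF-β1, and fl/fl cells left untreated, with 4 libraries each. The labels list 16 libraries, whereas the extraction protocol in them speaks of 8, and they do not say which libraries came from separate animals. The p-values below therefore measure the spread between libraries, which may be technical.

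Clustered histone genes are switched on when DNA is copied, and most of their transcripts end in a short stem-loop that binds the protein Slbp, with no poly(A) tail. Replacement genes are active throughout the cell cycle, and their transcripts carry introns and a poly(A) tail in most cases. The libraries were made from polyadenylated RNA, which captures the usual clustered transcript poorly. A clustered gene's count here is thus a count of its polyadenylated reads, and not of its whole output.

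The stem-loop is shown first because it was more frequent in clustered than in replacement genes, though not found in every clustered gene. It was searched as the 16-letter histone stem-loop consensus on the sense strand of the GENCODE M21 transcripts. It was found in 44 of the 65 clustered genes with a transcript there, in 1 of 15 replacement genes and in 0.133% of 21819 other protein-coding genes. The replacement gene was H2afx, which encodes the H2A variant that is phosphorylated at DNA breaks. The sequences of well-counted members are given with the paired stem in capitals and the loop in lower case.
Hist1h1c: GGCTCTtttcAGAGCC
Hist3h2a: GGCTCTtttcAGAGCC
Hist1h2bg: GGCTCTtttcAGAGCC
Hist1h4i: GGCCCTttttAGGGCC
H2afx: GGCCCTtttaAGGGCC
Hist1h1c, Hist3h2a and Hist1h2bg, from 3 protein families, had the same 16 letters, while Hist1h4i and H2afx had the same stem and differed in the loop.

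Annotated transcripts differed in how far they ran on past the stem-loop, and the counts differed with it. For 22 clustered genes the transcript ran on for more than 100 bases. These genes held 63.8% of all clustered counts, with a median of 95.5 counts per gene over the 16 libraries together. Hist1h1c alone had 13324 of their 17027 counts, so this share rests mostly on that gene. In the other 22 genes with a stem-loop the transcript ended within 100 bases. They held 3.9% of the counts, with a median of 38 and a highest total of 142. Hist1h1c had 840 bases after its stem-loop, Hist3h2a had 1643 and H2afx had 822. The 21 clustered genes whose annotated transcript lacked the consensus held 32% of the counts, and Hist1h2bc and Hist2h2be were among them. The search covered the annotated sequence alone, so a stem-loop past its end would be missed. A longer annotated transcript also collects more reads, and the part of length in this difference was not tested.

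Promoters are shown for the 4 members whose TGF-β1 response passed the edgeR test described below, with all libraries or without untreated KO replicate 1. Members that passed only in other settings are not shown. Each is the 250 bases before the RefSeq start, read 5′ to 3′ on the gene's strand in GRCm38.p6. The windows lie at chr13:23738557-23738806 on the plus strand for Hist1h1c, chr11:58954435-58954684 on the plus strand for Hist3h2a, chr6:87981483-87981732 on the minus strand for H1fx and chr11:116024505-116024754 on the minus strand for H3f3b. The RefSeq starts of H1fx and H3f3b lie inside the gene spans of the deposited table. Capitals mark the TATA box TATAAA, the CCAAT box, the GC box GGGCGG and the H1-box letters AAACACA, each on either strand, and no marked letters overlapped.
Hist1h1c: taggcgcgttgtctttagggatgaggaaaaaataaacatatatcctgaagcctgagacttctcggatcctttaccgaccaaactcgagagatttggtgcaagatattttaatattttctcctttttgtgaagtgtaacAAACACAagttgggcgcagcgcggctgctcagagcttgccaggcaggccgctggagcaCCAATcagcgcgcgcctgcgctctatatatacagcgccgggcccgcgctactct
Hist3h2a: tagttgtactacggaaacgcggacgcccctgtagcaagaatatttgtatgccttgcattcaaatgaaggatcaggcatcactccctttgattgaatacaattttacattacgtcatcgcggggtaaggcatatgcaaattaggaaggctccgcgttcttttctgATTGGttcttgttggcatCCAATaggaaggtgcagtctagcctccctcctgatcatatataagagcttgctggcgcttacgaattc
H1fx: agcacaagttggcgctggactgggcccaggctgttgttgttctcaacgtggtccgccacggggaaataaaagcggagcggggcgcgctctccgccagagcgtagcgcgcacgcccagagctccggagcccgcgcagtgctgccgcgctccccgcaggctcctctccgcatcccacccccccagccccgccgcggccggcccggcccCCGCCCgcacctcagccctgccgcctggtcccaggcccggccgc
H3f3b: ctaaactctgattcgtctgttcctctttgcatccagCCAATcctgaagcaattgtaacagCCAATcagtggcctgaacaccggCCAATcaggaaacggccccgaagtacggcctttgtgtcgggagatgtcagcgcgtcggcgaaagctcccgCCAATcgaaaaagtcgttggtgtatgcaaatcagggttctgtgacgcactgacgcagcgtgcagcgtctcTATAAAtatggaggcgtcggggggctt
H3f3b was the 1 replacement gene of 14 with TATAAA, 27 to 22 bases before the start, and it also held CCAAT 4 times. Hist1h1c held 1 CCAAT box with 1 copy of AAACACA, Hist3h2a held CCAAT on each strand, and H1fx held GGGCGG as its complement.

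Over the class, TATAAA stood in 47.5% of 61 clustered and 7.1% of 14 replacement promoters, against 14.3% of the 27025 promoters in the RefSeq table. CCAAT stood in 82.0% of clustered and 57.1% of replacement promoters, against 37.5% of all. AAACACA stood in 14.8% of clustered and 7.1% of replacement promoters, against 7.2% of all. GGGCGG, at 32.8% and 42.9% in those classes, was near its 35.4% in all promoters. CAGACA, the letters of a Smad-binding element, stood in 19.7% of clustered and 0.0% of replacement promoters, against 19.3% of all. These shares describe letters in a window, not bound sites.

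Copies of clustered genes resemble each other, and reads can fall on several of them. Of the 150-base windows in a clustered gene's transcripts, equal to the read length, a median of 24.5% also occurred in a transcript of another gene, and 53 of 65 genes shared at least 1 window. Among replacement genes the median was 0.0%, and 7 of 15 shared any. Hist2h2aa1, Hist2h2aa2, Hist2h3b and Hist2h3c1 shared 100% of their windows and had 0 counts in every library. How reads that map to several places were counted is not stated in the sources used here, so the split of reads among Hist1h2bc, Hist1h2be, Hist1h2bg, Hist1h2ae, Hist1h4i and their copies is uncertain.

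**Figure D1:**
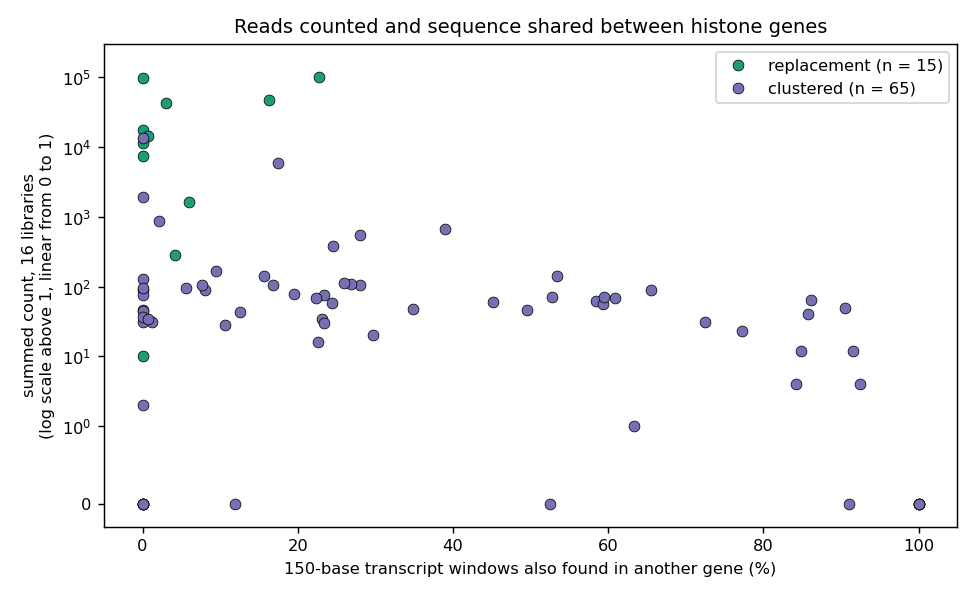
Each point is a histone gene with a GENCODE M21 transcript. The horizontal axis gives the percentage of its 150-base windows found in another gene, and the vertical axis gives its count summed over 16 libraries, on a scale that is linear up to 1 and logarithmic above. Replacement genes with reads lie at the left, and the 4 clustered genes that share 100% of their windows lie at 0 counts.

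Of the 82 genes, 12 had no read in any library: 8 clustered genes, and the replacement genes H1fnt, H2afb1, H2afb2 and H2afb3. A further 4 genes, all clustered, had 1 to 9 reads in total. Low counts kept 56 genes out of the tests, and 44 of these had some reads. The 26 genes tested were 16 clustered and 10 replacement genes, so all counts of tested members below leave out most clustered genes. Few genes made up the clustered reads. Hist1h1c, a linker histone of the H1 family, held 49.9% of them, the H2B genes Hist1h2bc and Hist2h2be held 21.9% and 7.26%, and the first 10 genes together held 90.0%.

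Levels were compared between genes as FPKM, which divides the reads by gene length and library total. H2afz, the H2A variant placed near active promoters, was highest at 299 ± 55.8 FPKM (SD, n = 16). H3f3b and H3f3a, which encode the same replacement H3 protein, followed at 122 ± 25.6 and 52.9 ± 8.65 FPKM. H2afy, which encodes a macroH2A, had 33.3 ± 3.90 FPKM and H2afj had 30.6 ± 13.2 FPKM. Hist1h1c at 26.8 ± 15.0 FPKM and Hist1h2bc at 25.0 ± 7.16 FPKM were the highest clustered genes. They stood with H2afj, H2afv, H1f0 and H2afx, and neighbours in this range of 16.8 to 30.6 FPKM did not differ beyond their spread. The next gene, Hist1h2bg, had 4.39 ± 1.41 FPKM and H1fx had 4.23 ± 1.60 FPKM.

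Library totals ran from 16865591 to 23741079 counts, and a floor of 3 counts in a library stood at 0.126 to 0.182 CPM (counts scaled to the library total after its TMM factor, as are all CPM here). Smad7, the check of the genotype, had 19.7, 14.8, 10.8 and 10.3 CPM in TGF-β1-treated KO libraries and 5.87, 1.28, 1.64 and 2.00 CPM in untreated KO libraries. It had 37.3, 40.9, 45.6 and 58.3 CPM in treated and 3.89, 5.24, 6.03 and 4.80 CPM in untreated fl/fl libraries. Untreated KO replicate 1 thus stood above the other 3 of its group and inside the untreated fl/fl range. For KO against fl/fl cells the log2 fold change of Smad7 was -1.71 ± 0.33 with TGF-β1 (adjusted p = 0.122) and -0.89 ± 0.37 without it (adjusted p = 0.423). Without that library the untreated value was -1.63 ± 0.27 (adjusted p = 0.0322), all by edgeR. It also lay with the treated libraries in other genes, such as Mcm6 below, so the main results that use it are given with and without it. Some single-gene changes are given with all libraries only. Defining macrophage genes summed to 15487 to 23667 CPM, with 7 of 8 found. The summed markers of T and NK cells, red cells, B cells and stroma stayed below 8 CPM in every library, with Cd3e, Cd3g, Pax5 and Igll1 among the defining markers at 0. Neutrophil-lineage markers summed to at most 17.5 CPM, with Ly6g at 0.

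Untreated KO replicate 2 stood apart in the histone genes themselves. It was the highest of the 4 untreated KO libraries for 18 of the 26 tested members and for 35.4% of all tested genes. It reached 1.5 times the mean of the other 3 libraries in 15 members, as did 14.8% of tested genes. Its ratio to that mean was 3.25 for Hist1h1c, 2.93 for H1f0, 2.91 for Hist1h4i, 2.80 for H2afx and 2.27 for H2afj, against a median of 0.996 over all tested genes. The abundant H2afz and H3f3a had ratios of 0.969 and 0.96, so not every member was high there. The summed megakaryocyte markers, of which Pf4 made 96.1%, were 148 CPM in this library, against 62.8 to 73.6 CPM in the other 3. That sum reached 110 CPM in treated KO, 119 CPM in treated fl/fl and 108 CPM in untreated fl/fl libraries. Markers of S phase and mitosis summed to 1258 CPM in untreated KO replicate 2, inside the range of 1065 to 1401 CPM in its group. The part of either in the histone values was not tested.

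**Figure D2:**
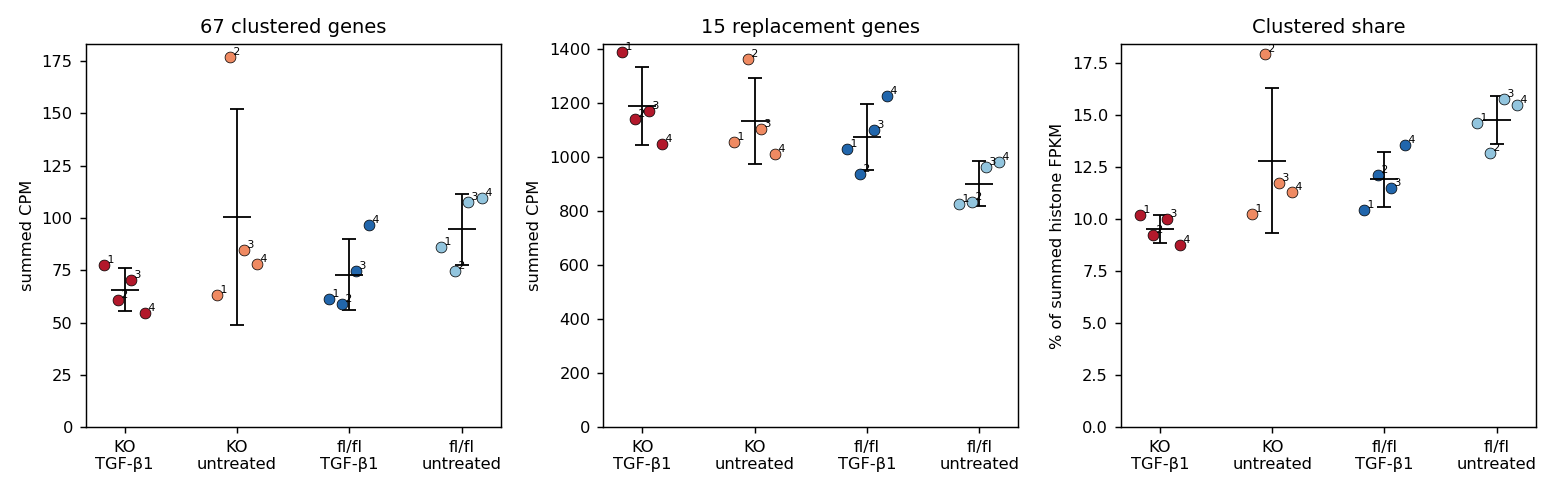
Summed CPM of the clustered genes, summed CPM of the replacement genes and the clustered share of summed histone FPKM in each library (points, with replicate numbers), with the mean and SD of the 4 libraries of a group. Untreated KO replicate 2 is the highest clustered value, at 177 CPM.

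As a class, clustered genes gave few reads in every group. Their CPM summed to 77.4, 60.8, 70.4 and 54.5 in treated KO libraries and to 63.2, 177, 84.7 and 77.8 in untreated KO libraries. The sums were 61.5, 59.0, 74.8 and 96.4 CPM in treated and 86.0, 74.7, 108 and 110 CPM in untreated fl/fl libraries. With all libraries, treated and untreated sums overlapped in both genotypes. In KO cells the overlap came through untreated replicate 1. Without it the lowest untreated sum was 77.8 CPM, just above the highest treated sum of 77.4 CPM. Between fl/fl libraries of the same number, the treated sum was the lower one in all 4 pairs. Without Hist1h1c, the clustered sum averaged 40.1 ± 7.14 CPM in treated and 39.6 ± 5.67 CPM in untreated fl/fl cells (SD, n = 4 each), so the lower treated sum in fl/fl cells lay in that gene.

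Replacement genes summed to 1389, 1141, 1170 and 1048 CPM in treated KO libraries and to 1055, 1363, 1103 and 1010 CPM in untreated KO libraries. They summed to 1030, 935, 1098 and 1226 CPM in treated and to 826, 834, 963 and 980 CPM in untreated fl/fl libraries, which overlapped although the treated sum was the higher one in all 4 same-numbered pairs. In KO cells the replacement sums overlapped with and without untreated replicate 1. The clustered share of summed histone FPKM was 8.73% to 10.20% in treated and 10.23% to 17.9% in untreated KO libraries, which narrowly did not overlap. Without untreated KO replicate 1 the lowest untreated share was 11.3%. In fl/fl cells the share was 10.4% to 13.6% in treated and 13.2% to 15.8% in untreated libraries.

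The first comparison asks how histone genes responded to 4 hours of TGF-β1 in cells that have Smad7. In fl/fl cells 2 of the 26 tested members rose and none fell, where 15.5% of all tested genes changed, 7.87% higher and 7.61% lower. Both were replacement genes, the linker histone gene H1fx and the H3 gene H3f3b. No clustered gene passed the test in edgeR. Of the 16 clustered genes tested, 3 had an unadjusted p under 0.05, as had 3584 of 13080 tested genes. DESeq2 called the same 2 members. In all 4 same-numbered fl/fl pairs the treated library was higher for 4 replacement genes and no clustered gene, as for 19.2% of tested genes, and lower for 4 clustered and 2 replacement genes, as for 21.7%. The 4 higher ones were H3f3b, H1fx, H2afz and H3f3a. The lower ones were Hist1h1c, Hist3h2a, Hist1h2be, Hist2h2bb, H2afv and H1f0, of which Hist1h2be had only 1 to 24 reads in a library. Hist2h2bb had enough reads for testing in 3 untreated and 1 treated fl/fl libraries. Its lower treated values are thus not read as a result. The median log2 fold change was 0.10 over 10 replacement genes, -0.08 over 16 clustered genes and -0.01 over all tested genes. Calls rest on edgeR's quasi-likelihood test with p-values adjusted by the Benjamini-Hochberg method over 13080 genes, at 0.05.

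H1fx encodes a linker histone made independently of DNA replication. It had 7.40, 7.16, 5.72 and 8.13 CPM in treated and 3.35, 3.32, 2.69 and 2.44 CPM in untreated fl/fl libraries. All treated libraries lay above all untreated ones. The log2 fold change was 1.27 ± 0.28 (SE), with an adjusted p of 0.00477 in edgeR. H1fx overlaps Gm5577 on the opposite strand, with 392 counts in all, and reads of the pair cannot be told apart without strand.

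H3f3b had 310, 292, 335 and 338 CPM in treated fl/fl libraries. It had 237, 213, 239 and 240 CPM in untreated ones, and the groups did not overlap. Its log2 fold change was 0.46 ± 0.12 (adjusted p = 0.0161, edgeR). Without untreated fl/fl replicate 2, its lowest library, the change was 0.41 and the adjusted p was 0.0577. H3f3a, which encodes the same protein from another locus, had 152, 130, 158 and 188 CPM in treated and 102, 123, 154 and 149 CPM in untreated fl/fl libraries. These groups overlapped, with the treated library higher in each pair (log2 fold change 0.25 ± 0.14, adjusted p = 0.296, edgeR). H3f3a shares its locus with the antisense genes H3f3aos and Gm17275, which had 317 and 2420 counts in all.

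Other replacement genes did not pass the test in fl/fl cells. H2afz had 310, 263, 332 and 369 CPM in treated and 226, 231, 294 and 307 CPM in untreated libraries (log2 fold change 0.27 ± 0.13, adjusted p = 0.185, edgeR). H2afy, H2afx, H2afj, H2afv and H2afy2 had log2 fold changes from -0.06 to 0.11. H1f0, a linker histone known to accumulate in differentiated cells, had 37.3, 31.6, 33.8 and 45.6 CPM in treated and 43.2, 42.6, 41.2 and 47.7 CPM in untreated libraries, which overlapped.

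Among clustered genes in fl/fl cells, Hist1h1c had 28.0, 22.3, 34.5 and 46.4 CPM in treated and 49.8, 41.3, 62.9 and 65.5 CPM in untreated libraries. Treated replicate 4 lay above untreated replicate 2, so the groups overlapped, although each treated library was lower than the untreated one of the same number. The log2 fold change was -0.74 ± 0.36 and did not pass the test (adjusted p = 0.193, edgeR). Hist1h1c passed, as lower, when the fl/fl libraries were fitted alone (-0.75, adjusted p = 0.0354) and when untreated KO replicate 2 was left out of the shared fit (-0.75, adjusted p = 0.0165), both by edgeR. Hist3h2a, an H2A gene outside the main clusters, had 1.52, 1.46, 0.866 and 0.469 CPM in treated and 2.51, 1.81, 1.95 and 2.104 CPM in untreated libraries. It was the 1 tested member with all treated libraries lower, as in 12.5% of tested genes, while H1fx and H3f3b were the 2 with all treated libraries higher, as in 11.4% (for Hist3h2a, log2 fold change -0.96 ± 0.42, adjusted p = 0.141, edgeR). Hist2h2be had 3.46, 3.03, 4.23 and 5.63 CPM in treated and 5.98, 6.41, 5.56 and 5.30 CPM in untreated libraries. These overlapped through treated replicate 4 alone, and without that library Hist2h2be and Hist1h4k also passed, which made 4 members, with 13.1% of all tested genes called. Hist1h4k, an H4 gene, had 21, 13, 18 and 0 reads in treated and 2, 7, 6 and 4 reads in untreated fl/fl libraries, so the library left out was its zero. Its log2 fold change was 1.54 ± 0.79 with all libraries (adjusted p = 0.224) and 1.95 ± 0.60 without that one (adjusted p = 0.0416), both by edgeR. In KO cells it had 15, 13, 4 and 7 reads with TGF-β1 and 12, 5, 14 and 2 reads without.

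The other clustered genes with more reads showed no separation by TGF-β1. Hist1h2bc had 22.6, 17.03, 17.4 and 12.5 CPM in treated and 15.6, 28.6, 23.6 and 21.2 CPM in untreated KO libraries, and 12.6, 11.6, 16.98 and 22.2 CPM in treated and 15.3, 14.1, 20.5 and 20.9 CPM in untreated fl/fl libraries. Hist1h4i, an H4 gene, had 3.28, 3.19, 3.03 and 3.49 CPM in treated and 1.62, 1.16, 2.47 and 3.62 CPM in untreated fl/fl libraries, and untreated replicate 4 lay above the treated values while the other 3 lay below them (log2 fold change 0.53 ± 0.38, adjusted p = 0.394, edgeR). In KO cells Hist1h4i had 3.17, 2.11, 2.38 and 1.97 CPM with TGF-β1 and 1.86, 5.80, 2.13 and 2.00 CPM without. Hist1h2bg ran from 0.687 to 3.05 CPM, Hist1h2ae from 0.364 to 3.23 CPM and Hist1h2be from 0.0521 to 1.04 CPM over the 16 libraries, and their groups overlapped in both genotypes. H2afx, of the replacement genes, had 16.4 to 26.1 CPM in treated and 15.6 to 24.4 CPM in untreated fl/fl libraries, and H2afv had 27.1 to 33.9 CPM in treated and 27.7 to 36.2 CPM in untreated ones.

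**Figure D3:**
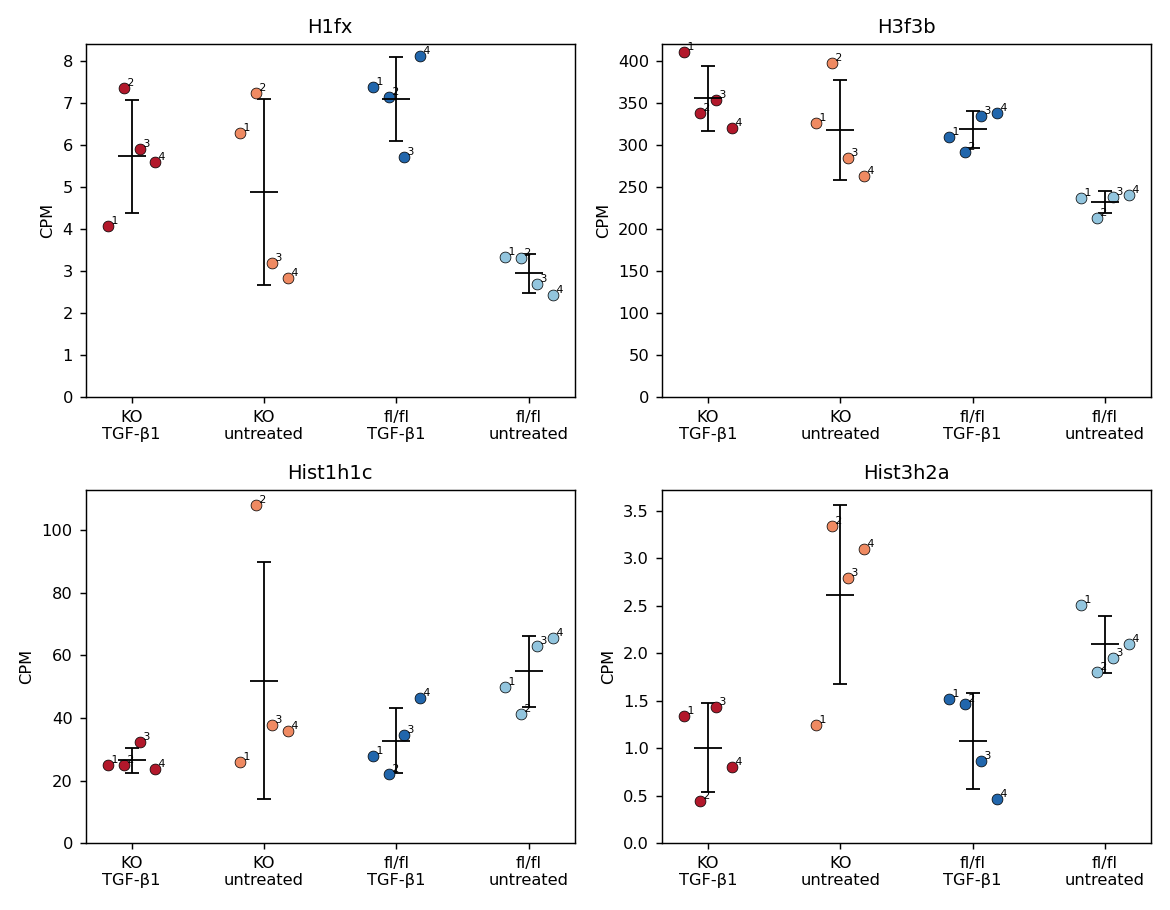
CPM of H1fx, H3f3b, Hist1h1c and Hist3h2a in each library (points, with replicate numbers), with the mean and SD of the 4 libraries of a group. In fl/fl cells H1fx is at 5.72 to 8.13 CPM with TGF-β1 and at 2.44 to 3.35 CPM without, and untreated KO replicates 1 and 2 reach 6.30 and 7.24 CPM.

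The same treatment was then examined in KO cells. No member passed the test with all 16 libraries, where 5.17% of tested genes did. An unadjusted p under 0.05 was found in 3 of the 26 tested members and in 2311 of 13080 tested genes (edgeR). No member had all treated libraries higher or all lower, as happened in 2.98% and 3.06% of tested genes. All 3 members under 0.05 were clustered genes with lower values, Hist3h2a, Hist1h1c and Hist2h2be. Without untreated KO replicate 1, 2 members fell, Hist1h1c and Hist3h2a, and none rose, with 15.2% of genes called (8.33% higher, 6.88% lower). DESeq2 on all libraries called the same 2 genes, with 8.36% of genes called. The median log2 fold change with all libraries was 0.05 over replacement genes, -0.02 over clustered genes and -0.03 over all tested genes.

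Hist1h1c had 25.0, 24.9, 32.3 and 23.8 CPM in treated KO libraries. It had 26.1, 108, 37.9 and 35.8 CPM in untreated ones, of which replicate 1 lay within the treated range and replicate 2 far above it. The log2 fold change was -0.97 ± 0.36 with all libraries (adjusted p = 0.144, edgeR) and -1.16 ± 0.31 without replicate 1 (adjusted p = 0.0143, edgeR). With replicates 1 and 2 both left out, when 13.7% of genes and 3 members (Hist3h2a, H1fx and H3f3b) passed, it was -0.46 ± 0.23 and did not pass (adjusted p = 0.265, edgeR). That setting was added after seeing the data.

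Hist3h2a had 1.34, 0.442, 1.44 and 0.806 CPM in treated and 1.24, 3.34, 2.79 and 3.10 CPM in untreated KO libraries. Untreated replicate 1 again lay with the treated libraries, and the other 3 lay above them all. Its log2 fold change was -1.38 ± 0.42 with all libraries (adjusted p = 0.0636), -1.58 ± 0.40 without replicate 1 (adjusted p = 0.0101) and -1.53 ± 0.45 without replicates 1 and 2 (adjusted p = 0.0296), each by edgeR. Hist3h2a shares 28% of its windows with Trim17, a gene on the same strand with 372 counts in all, so some of its reads are uncertain. Hist2h2be had 7.48, 5.94, 5.42 and 5.46 CPM in treated and 6.06, 10.5, 8.15 and 8.72 CPM in untreated KO libraries. Without replicate 1, Hist1h1c, Hist3h2a and Hist2h2be were the 3 members with all treated libraries lower, as in 12.6% of tested genes.

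The fl/fl responders were less separated in KO cells. H1fx had 4.09, 7.36, 5.92 and 5.59 CPM in treated and 6.30, 7.24, 3.19 and 2.84 CPM in untreated KO libraries. Untreated replicates 1 and 2 lay within the treated range and replicates 3 and 4 below it. The log2 fold change was 0.23 ± 0.27 with all libraries (adjusted p = 0.783) and 0.41 ± 0.29 without replicate 1 (adjusted p = 0.447), both by edgeR. With replicates 1 and 2 left out it was 0.95 ± 0.25 (adjusted p = 0.0164, edgeR). H3f3b had 410, 338, 354 and 321 CPM in treated and 326, 397, 284 and 264 CPM in untreated KO libraries. Its log2 fold change was 0.16 ± 0.12 with all libraries (adjusted p = 0.586) and 0.40 ± 0.11 with replicates 1 and 2 left out (adjusted p = 0.0242), also by edgeR. Leaving out both was chosen after seeing the data, and it leaves 2 untreated KO libraries. Replicate 2 stood at 1.76 times the mean of the other 3 for H1fx and at 1.36 times for H3f3b. Its removal therefore enlarges both changes, and these 2 passes are not read as a result.

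No difference between the KO and fl/fl responses passed the test of that difference, for any member or for any of the tested genes (0.0%), in edgeR. DESeq2 called 0.00765% of genes and no member. An unadjusted p under 0.05 was found in 275 of 13080 tested genes (edgeR), and H1fx was the 1 member among them. Its response was lower in KO than in fl/fl cells by a log2 difference of -1.04 ± 0.39 (unadjusted p = 0.0156, adjusted p = 0.993, edgeR). That difference was -0.86 ± 0.39 without untreated KO replicate 1 and -0.32 ± 0.32 with replicates 1 and 2 left out.

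**Figure D4:**
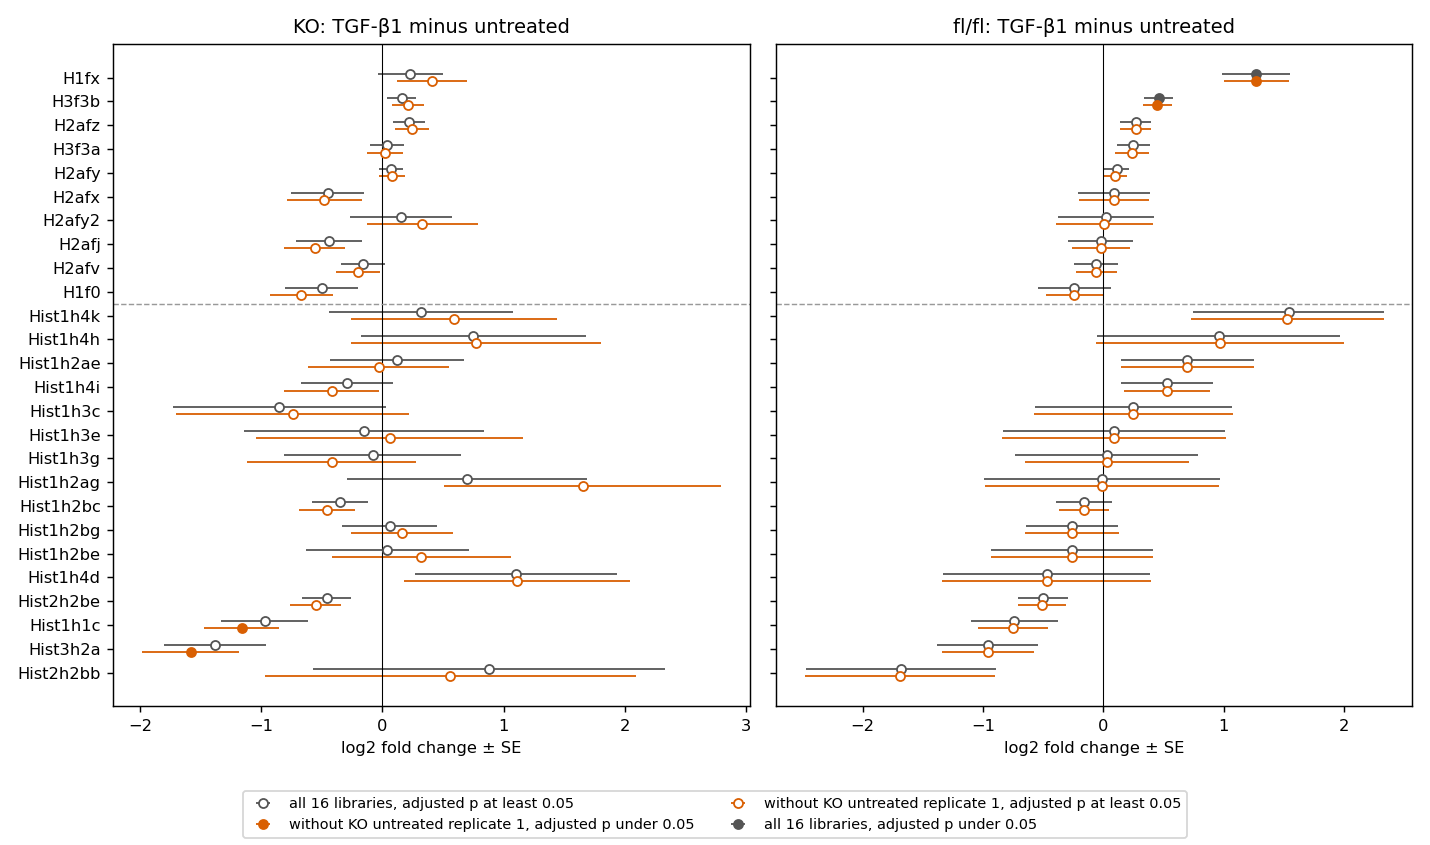
Log2 fold changes of the 26 tested members for TGF-β1 against untreated cells, in KO cells on the left and in fl/fl cells on the right, with SE bars. Replacement genes are above the dashed line and clustered genes below it. Filled points passed the test, which holds for H1fx and H3f3b in fl/fl cells and, without untreated KO replicate 1, for Hist1h1c and Hist3h2a in KO cells.

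The effect of Smad7 loss was examined next in untreated cells. No member passed the test, as against 0.0459% of tested genes. An unadjusted p under 0.05 was found in 7 of the 26 tested members and in 1421 of 13080 tested genes (edgeR). In 4 members all KO libraries were higher, as in 3.94% of tested genes, and in 2 all were lower, as in 4.11%. The higher ones were the replacement genes H3f3b, H2afj, H2afz and H2afy, and the lower ones were H2afy2 and Hist2h2bb. H3f3b had the log2 fold change 0.45 ± 0.12 (adjusted p = 0.304, edgeR), from the untreated values given above. H2afj, an H2A variant known to accumulate in senescent human cells, had 49.4, 128, 66.0 and 53.9 CPM in KO and 45.8, 45.7, 46.5 and 47.8 CPM in fl/fl libraries (log2 fold change 0.68 ± 0.27, adjusted p = 0.416, edgeR). The fl/fl libraries lay close together, and KO replicate 2 stood well above the other KO libraries. Without KO replicate 1, again no member passed, as against 0.0994% of genes. All KO libraries were then higher in 7 members, as in 7.18% of genes, and lower in 2, as in 7.05%. With KO replicates 1 and 2 left out, the log2 fold changes were 0.23 for H3f3b and 0.36 for H2afj, and no member passed. The median log2 fold change with all libraries was 0.40 over replacement, 0.25 over clustered and 0.03 over all tested genes. With KO replicates 1 and 2 left out, these medians were 0.10, -0.36 and -0.01. Replacement genes summed to 1010 to 1363 CPM in untreated KO and 826 to 980 CPM in untreated fl/fl libraries, which did not overlap. These sums carry no test.

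H2afz had 315, 312, 337 and 314 CPM in untreated KO and 226, 231, 294 and 307 CPM in untreated fl/fl libraries, close at the edges. The second macroH2A gene, H2afy2, had 0.859, 0.719, 0.310 and 0.735 CPM in KO and 1.32, 1.11, 0.955 and 1.09 CPM in fl/fl libraries (log2 fold change -0.77 ± 0.41, adjusted p = 0.485, edgeR). It overlaps Aifm2 on the opposite strand, which had 9171 counts in all against 284 for H2afy2.

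Hist2h2bb, an H2B gene on chromosome 3 singled out after its values were seen, had 0, 0, 0 and 2 reads in untreated KO libraries. It had 23, 16, 21 and 4 reads in untreated fl/fl libraries. With TGF-β1 it had 1, 2, 1 and 0 reads in KO and 9, 4, 6 and 0 reads in fl/fl libraries. The ratio of its pooled CPM in KO to fl/fl cells was 0.0307 untreated and 0.200 with TGF-β1. The untreated fl/fl libraries themselves ran from 4 to 23 reads. Hist2h2bb had enough reads for testing in 4 libraries, all of them fl/fl and none KO. A member let in by the group where it is high had to differ, so no p or interval is given for its KO and fl/fl values. The place of Hist2h2bb among the 7 members and the separated members above is not read as a result. Nor is its place among the calls of DESeq2 (0.466% of tested genes). Of its windows, 8% also occurred in Gm20628, an antisense gene there, and counts on the strands cannot be told apart.

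With TGF-β1 in both genotypes, no member passed the test of KO against fl/fl cells, as against 0.0382% of tested genes. In no tested member were all treated KO libraries higher or all lower, as happened in 2.0% and 2.61% of tested genes. DESeq2 called no member either. In edgeR 734 of 13080 tested genes had an unadjusted p under 0.05. The 1 member among them was Hist2h2be, with 7.48, 5.94, 5.42 and 5.46 CPM in treated KO and 3.46, 3.03, 4.23 and 5.63 CPM in treated fl/fl libraries (log2 fold change 0.57 ± 0.21, adjusted p = 0.877). Treated fl/fl replicate 4 alone lay within the KO range. The comparisons share groups of libraries, and their fold changes are not independent.

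Genes that make, process and place histones were counted from lists. Of 19 genes for histone transcription and mRNA processing, 1 rose and 1 fell in fl/fl cells with TGF-β1, a smaller share than the 15.5% called among all tested genes. Slbp, which binds the stem-loop, had 29.0, 28.6, 36.1 and 26.1 CPM in treated and 19.9, 20.1, 21.5 and 23.8 CPM in untreated libraries (log2 fold change 0.49 ± 0.13, adjusted p = 0.0153, edgeR). Cstf2, a cleavage factor for messenger RNA ends, fell to 19.2, 22.1, 20.6 and 23.5 CPM, against 32.4, 30.8, 29.2 and 28.8 CPM in untreated libraries (-0.50 ± 0.13, adjusted p = 0.0136, edgeR). Both groups of libraries were apart for each gene. In KO cells none of the 19 passed, with or without untreated replicate 1, against 5.17% of all tested genes with it and 15.2% without it. Slbp had 36.0, 30.6, 26.0 and 30.9 CPM in treated and 33.4, 26.4, 27.2 and 25.6 CPM in untreated KO libraries.

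Of 31 histone chaperones and depositors, 1 rose with TGF-β1 in each genotype and none fell, against 5.17% of all tested genes called in KO and 15.5% in fl/fl cells. It was Ipo4, an importer that carries histones into the nucleus. Its log2 fold change was 0.44 ± 0.12 in KO (adjusted p = 0.0388) and 0.54 ± 0.12 in fl/fl cells (adjusted p = 0.00415), both by edgeR. Without untreated KO replicate 1 it was 0.59 ± 0.1 in KO cells (adjusted p = 0.000406, edgeR). Without untreated KO replicate 1, 2 of the 31 rose and 1 fell in KO cells, a smaller share than the 15.2% called among all tested genes. Beside Ipo4, Ubn1 rose, a subunit of the complex that deposits the H3 variant of H3f3b (0.46 ± 0.13, adjusted p = 0.0252, edgeR). Untreated KO replicate 2 was low for Ubn1, at 119 CPM against 165 and 175 CPM in replicates 3 and 4. Daxx, another chaperone of that variant, fell (-0.56 ± 0.13, adjusted p = 0.00427, edgeR).

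Of 24 genes of S phase and mitosis, Mcm6, of the replicative helicase, and Tk1, thymidine kinase, rose in fl/fl cells, and 1 gene fell, against 7.87% of all tested genes higher and 7.61% lower. Mcm6 had 113, 111, 111 and 107 CPM in treated and 55.6, 57.8, 60.5 and 68.4 CPM in untreated fl/fl libraries (log2 fold change 0.87 ± 0.19, adjusted p = 0.00452, edgeR). In KO cells it had 80.7, 107, 102 and 121 CPM with TGF-β1 and 103, 55.1, 47.0 and 54.5 CPM without (0.66 ± 0.19, adjusted p = 0.0488, edgeR), and untreated replicate 1 lay with the treated libraries. Without that library the log2 fold change of Mcm6 was 1.0 ± 0.12 (adjusted p = 6.41e-06, edgeR). Neither genotype comparison, and no difference between responses, called a gene of these 3 lists. The 24 genes of S phase and mitosis summed to 1151 to 1476 CPM in treated and 1234 to 1353 CPM in untreated fl/fl libraries, which overlapped. In bulk RNA, a change in the share of cells in S phase and a change in RNA per cell cannot be told apart.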

How the data were processed

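The submitters' processing notes name the tools TopHat2 (2.0.9), Cufflinks (2.1.1) and HTSeq (0.6.1). Counting options, strand and handling of multi-mapped reads are not given in the sources used here. The authors deposited raw read counts for 35275 genes and an FPKM table, of which 100% of positive values equalled count over length and total within 0.1%. Members and gene lists were chosen with earlier results of these data known. Values described are those of every tested replacement gene, or a summary of them, the 8 clustered genes with the highest mean CPM and other members called in an edgeR fit. The values of 1 called gene of the S phase and mitosis list are not reported here.

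Counts were fitted in edgeR 4.0.16 (R 4.3.3), with TMM scaling (which the CPM also carry), filterByExpr and robust quasi-likelihood F-tests, in 1 model of 16 libraries with a mean per group. An adjusted p is edgeR's over 13080 genes unless another tool is named. On simulated counts for the fl/fl comparison the model recovered 40% of genes changed by 0.5 on the log2 scale and 100% of those changed by 1.0. The changed genes were drawn from well-counted genes only, and every gene was given the same fixed spread. These rates therefore do not apply to clustered members with few reads or to members with a wide spread. Alternatives used DESeq2 1.42.0, limma 3.58.1, other filters and scaling, blocks and left-out libraries. Same-numbered fl/fl libraries deviated together (r = 0.144 to 0.274), so their numbers were taken as pairs. Only 5 of 8 fl/fl libraries correlated best with their own number, so this pairing is uncertain. In KO cells r was 0.029 to 0.327, not above 0.1 in every pair. Sequences are from GENCODE M21 and RefSeq (GRCm38.p6), in which 61 clustered and 14 replacement promoters were matched. Reads carry no molecular identifiers, so floors cover counting error only.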

Additional observations from a re-analysis of the deposited data

Results flagged for a closer look

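Of 84 groups of 4 libraries checked, 9 held a library that lay far from the other 3 (a gap past Dixon's critical value at 95%), and chance alone marks about 1 group in 20. Untreated KO replicate 2 accounted for 4 of them. It was high for H1f0, at 114 CPM against 31.1 to 44.2 CPM in the other 3, for Hist1h1c, at 108 CPM against 26.1 to 37.9 CPM, for H2afv, at 62.8 CPM against 32.5 to 37.1 CPM, and for Hist1h4i, at 5.80 CPM against 1.86 to 2.13 CPM. Untreated KO replicate 3 was high for H2afz, at 337 CPM against 312 to 315 CPM. For Hist2h2bb, untreated KO replicate 4 had 0.105 CPM, from 2 reads, against 0 in the other 3. Treated KO replicate 1 was high for H1f0, at 54.0 CPM against 35.0 to 37.4 CPM. Treated KO replicate 3 was high for Hist1h1c, at 32.3 CPM against 23.8 to 25.0 CPM. Untreated fl/fl replicate 2 was low for H3f3b, at 213 CPM against 237 to 240 CPM, and it is the library without which that gene's call was lost.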

How the results depend on the processing

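The count of members called for TGF-β1 in KO cells was 0 with all libraries. It was 2 in DESeq2, 1 in limma on log2(FPKM + 1), Hist3h2a, and 3 with untreated KO replicates 1 and 2 both left out (H1fx and H3f3b higher, Hist3h2a lower), an alternative added after seeing the data. Leaving out 1 library gave 0 to 2, with 2 without untreated KO replicate 1 and 1, Hist3h2a, without treated fl/fl replicate 4. Over all tested genes 676 were called in KO cells, against 1093 in DESeq2 and 1989 without untreated KO replicate 1. In fl/fl cells the count of members was 2, 1 in limma on log2(FPKM + 0.1), and 2 in limma on log2(FPKM + 1) with Hist2h2bb in place of H3f3b. That call of Hist2h2bb is not read as a result, since mostly untreated fl/fl libraries let it into the tests. Leaving out 1 library gave 1 to 4, with 1 without untreated fl/fl replicate 2 and 4 without treated fl/fl replicate 4. For KO against fl/fl untreated it was 0, and 1 in DESeq2, Hist2h2bb, which had enough reads for testing in fl/fl libraries alone. In DESeq2 61 tested genes were called there, against 6 in edgeR, and 24 against 5 with TGF-β1. The other counts of members stayed within 1.5 times the count with all libraries under size factors, no filter, libraries of the compared groups alone, where Hist1h1c joined H1fx and H3f3b in fl/fl cells (3 members), and limma. H3f3b in fl/fl cells had adjusted p-values of 0.0536 and 0.0547 in limma on FPKM with 0.1 and 1 added. No named gene's called change turned its direction. With the replicate number as a block, 2 members were called in fl/fl cells and 0 in KO cells, as without it, and a block within genotype, added after seeing the data, gave 2 and 0. In KO cells, where the numbers were not taken as pairs, 3 of 8 libraries correlated best with their own number. In fl/fl cells 5 of 8 did. Depth limits the clustered genes: 51 of 67 were too low to test.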

Other observations

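Histone pseudogenes and antisense genes outside the members also held reads. H3f3a-ps1 had 554 counts over the 16 libraries, at 0.645 to 2.19 CPM in treated and 1.73 to 2.47 CPM in untreated KO libraries, and at 0.993 to 1.93 CPM in treated and 1.47 to 1.91 CPM in untreated fl/fl libraries. H3f3aos, antisense to H3f3a, had 317 counts, and H3f3c had 185. Of reads on the H3f3a copies, how many came from H3f3a itself was not tested.

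Within the clustered genes, families differed in what they summed to. The 13 H4 genes summed to 5.37 to 7.02 CPM in treated and 2.097 to 4.96 CPM in untreated fl/fl libraries, which did not overlap, and to 3.22 to 8.77 CPM in treated and 3.15 to 9.66 CPM in untreated KO libraries, which did. The 6 clustered H1 genes, of which Hist1h1c makes nearly all reads, summed to 24.0 to 46.9 CPM in treated and 42.0 to 66.8 CPM in untreated fl/fl libraries, which overlapped. These family sums were looked at after the single genes and carry no test.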
